A study of Mus musculus with 16 samples.

Results

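Translation efficiency (TE) in the dorsal spinal cord was compared between mice with spared nerve injury (SNI) and sham-operated mice for 11619 protein-coding genes of the 53465 genes in the table, 22040 of which are annotated as protein coding. These were the genes with an average of at least 32 ribosome footprint reads and at least 32 mRNA reads per library, each over the 4 spinal cord libraries of that assay. The SNI lysates came from mice with injury on both sides, in which branches of the sciatic nerve are cut and the sural branch is left intact. The sham lysates came from mice with the surgery but no nerve lesion. All animals were C57BL/6J females, 8 weeks old at surgery, and the dorsal part of the lumbar cord was taken 30 days later. Each lysate was a pool of tissue from 10 mice and gave 1 footprint and 1 poly(A)+ mRNA library, so every value rests on 2 SNI pools and 2 sham pools. The standard errors and p-values of edgeR borrow the spread from all genes, and for the called genes these errors were smaller than those from the lysates of the gene itself.

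Ribosome profiling sequences the stretches of mRNA that ribosomes shield from a nuclease. The footprints on a gene count its engaged ribosomes, and their ratio to the mRNA reads of the same lysate, the TE, measures how heavily the gene's mRNAs are loaded. A change in footprints with no change in mRNA therefore appears as a change in TE, while a change of both by the same factor does not. In neurons, loading is set largely at initiation, through the cap-binding factor eIF4E, the mTORC1 and MNK kinases that act on it, and phosphorylation of eIF2. These kinases are studied in pain because they control the sensitivity of nociceptive circuits. Mitochondria translate their own mRNAs on separate ribosomes.

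The cord libraries held between 6898056 and 10688450 footprint reads and between 22181228 and 27233473 mRNA reads counted in genes. The genes studied here took 96.3% to 97.0% of footprint reads and 96.6% of mRNA reads. Small noncoding RNAs took 2.42% and 2.40% of footprint reads in the SNI libraries and 1.77% and 1.82% in the sham libraries, and their part in the results was not tested. Markers of the cell types of the dorsal horn were present. All 15 astrocyte, 18 oligodendrocyte, 21 excitatory neuron and 18 inhibitory neuron markers reached an average of 32 mRNA reads per library, and 10 of 16 markers of sensory neuron cell bodies did so too. Of 13 marker lists, the summed mRNA levels of 3 are given here. Those of microglia and macrophages were at 772 and 790 CPM (counts per 1000000 reads in genes) after SNI against 606 and 613 CPM in sham. Those of genes induced in injured sensory neurons were at 969 and 984 CPM after SNI against 851 and 862 CPM in sham, and those of motor neurons at 333 and 335 CPM after SNI against 371 and 375 CPM in sham. In bulk tissue, causes such as fewer cells of a type and less RNA per cell cannot be told apart.

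Read counts are given as deposited, and the footprint library of sham replicate 2 was the deepest. Few protein-coding genes were called as changed in TE in the cord, and of the 35 gene lists examined only that of the mitochondrial genome held called genes. Zfand1, which encodes an AN1-type zinc finger protein, was the 1 gene called higher after SNI, 0.00861% of the genes tested. The 6 genes called lower, 0.0516%, were 5 of the mitochondrial genome and Zfp654, which encodes a zinc finger protein. The calls came from edgeR's quasi-likelihood test of whether the effect of SNI differed between footprints and mRNA, with lysates as terms and a Benjamini-Hochberg adjusted p under 0.05. With no adjustment, 382 genes had a p under 0.05 and a higher TE, and 389 had a lower one. DESeq2 called Zfand1 and 0 genes lower (33 at an unadjusted p under 0.05), and limma on log2 TE per lysate called 0 genes, with 352 and 349 at an unadjusted p under 0.05.

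**Figure D1:**
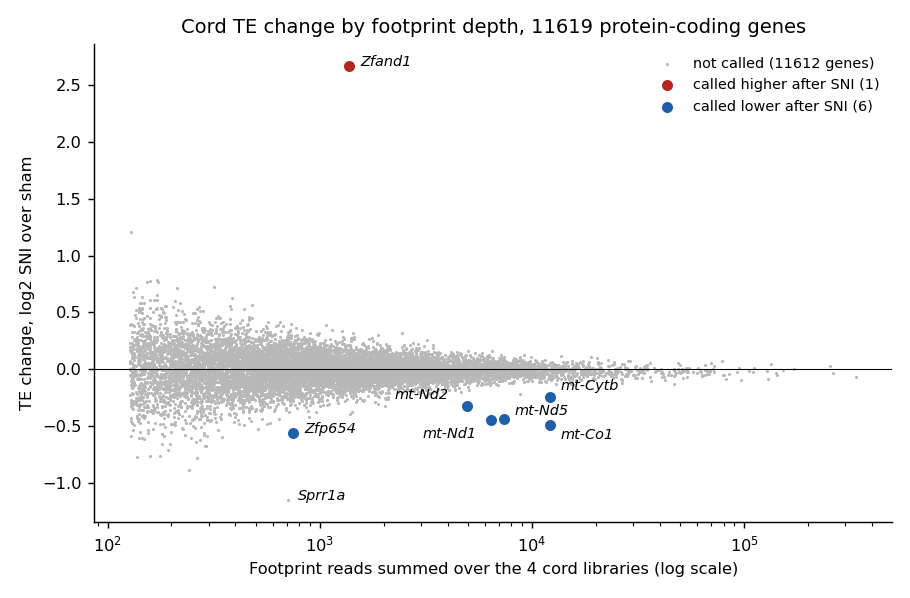
TE change of each of the 11619 genes (vertical axis, log2 SNI over sham) against its footprint reads over the 4 cord libraries (horizontal axis, log scale). Red and blue points are the 7 called genes, and Zfand1 stands alone at 2.67 while the grey cloud narrows from left to right.

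The sequences around the start codons of called genes are shown because they identify the mRNAs and how they differ. Zfand1 lies on the minus strand of chromosome 3 of GRCm38, from 10339953 to 10351317, and no other annotated gene overlaps it. Its longest annotated coding transcript has a leader of 21 bases, a coding region of 804 bases and a 3′ UTR of 785 bases. Zfp654 lies on the minus strand of chromosome 16, from 64780347 to 64851652, and is annotated with no leader, so its start is not shown. The mitochondrial mRNAs begin with their coding region in the annotation and use several start codons. In each line the start codon is in capitals. Zfand1 is shown from 10 bases before it, at chr3:10351277-10351306. The mitochondrial genes are shown from their first base, with the 5 called genes before the 3 others.
Zfand1: cggtggaaagATGgcggagttggacattgg
mt-Co1: ATGttcattaatcgttgattattctcaacc
mt-Nd1: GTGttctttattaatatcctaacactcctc
mt-Nd5: ATCaatattttcacaacctcaatcttatta
mt-Nd2: ATAaatcctatcacccttgccatcatctac
mt-Cytb: ATGacaaacatacgaaaaacacacccatta
mt-Nd4: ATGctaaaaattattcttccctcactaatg
mt-Nd6: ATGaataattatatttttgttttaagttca
mt-Nd3: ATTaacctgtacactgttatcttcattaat
On chromosome M these stretches run from 5328 to 5357 for mt-Co1, 2751 to 2780 for mt-Nd1, 11742 to 11771 for mt-Nd5, 3914 to 3943 for mt-Nd2, 14145 to 14174 for mt-Cytb, 10167 to 10196 for mt-Nd4, 14041 to 14070 on the minus strand for mt-Nd6 and 9459 to 9488 for mt-Nd3. Both called and uncalled genes were found among those with ATG and among those with other start codons.

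Zfand1 had 539 and 614 footprint reads in the SNI lysates, against 77 and 147 in the sham lysates. As a share of each library these were 70.6 and 89.0 CPM after SNI and 10.7 and 13.8 CPM in sham. Its mRNA had 227 and 179 reads after SNI and 247 and 191 in sham, or 9.65 and 8.07 CPM against 9.07 and 8.53 CPM. The footprints of the SNI lysates were thus well above those of both sham lysates, while the mRNA levels of the groups overlapped. The log2 TE was 2.87 and 3.46 in the SNI lysates and 0.24 and 0.69 in the sham lysates, which means that Zfand1 took a far larger share of footprints than of mRNA reads after SNI. These SNI values are extreme, as the 99th percentile of the SNI mean log2 TE over all genes was 1.79. Counts per gene do not show where on the mRNA the reads lie, so whether all of them come from translating ribosomes was not tested. The TE change was 2.67 on the log2 scale, with a standard error of 0.16, or 6.35-fold (adjusted p = 1.3e-18, edgeR). Computed from the lysates of this gene alone, the standard error was 0.37. The footprint change was 2.66 (adjusted p = 8.4e-14) and the mRNA change 0.01 (adjusted p = 0.99). In human cells, the product of this gene acts with the proteasome in the clearance of stress granules.
Without any 1 lysate, the TE change of Zfand1 stayed between 2.38 and 2.97 and was called each time. It was not called with limma on log2 TE per lysate (2.70, adjusted p = 0.56), and with the summed minimum asked of every single library it was not tested, because of its 77 footprint reads in 1 sham library.

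**Figure D2:**
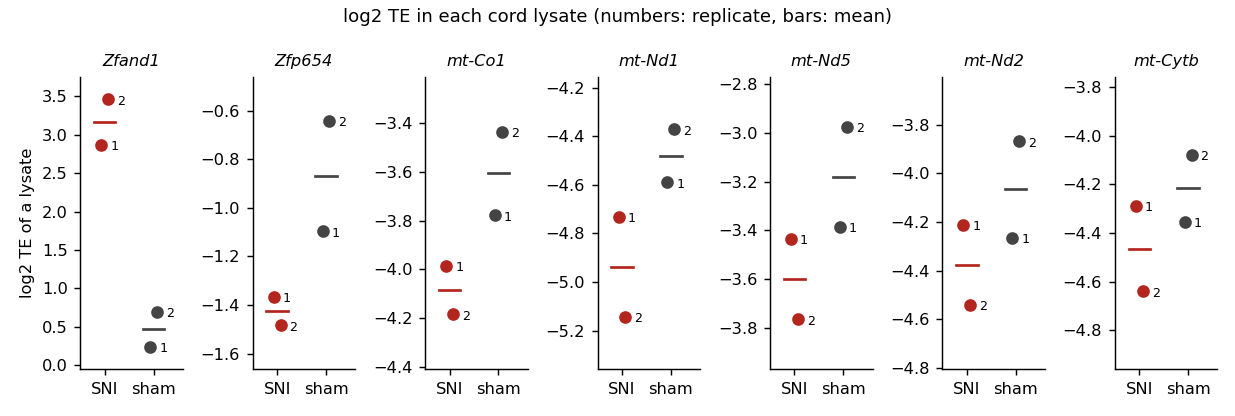
The log2 TE of the 7 called genes in each cord lysate (points, labelled with the replicate number) with group means (bars), SNI left and sham right. The vertical axis of Zfand1 spans a wider range than those of the other genes, which share 1 span, and the SNI and sham points of mt-Nd2 and mt-Cytb interleave.

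Mitochondrial mRNAs as a set took a smaller share of footprint reads after SNI, though single genes differed. In footprints, 6 of 8 genes were called lower, against 0.969% of all genes tested. The footprint change of mt-Nd3 was 0.57 (adjusted p = 0.32, edgeR). Footprints of mt-Cytb, at 370 and 278 CPM after SNI and 365 and 443 CPM in sham, overlapped between the groups. Whether these reads count mitochondrial ribosomes was not tested. Of the 13 proteins encoded in mitochondrial DNA, 8 had enough reads and the remaining 5, mt-Nd4l, mt-Co2, mt-Co3, mt-Atp6 and mt-Atp8, were listed at 0 or 1 read in each cord library. Why these 5 had almost no reads was not tested, and they are best taken as not measured. The shares that follow therefore rest almost wholly on the other 8. Together these mRNAs took 0.138% and 0.106% of footprint reads in the SNI lysates and 0.149% and 0.181% in the sham lysates. Their share of mRNA reads was 2.596% and 2.501% after SNI and 2.70% and 2.67% in sham. Both shares were lower in each SNI lysate than in each sham lysate. The called genes are subunits of the respiratory chain, with mt-Nd1, mt-Nd2 and mt-Nd5 in complex I, mt-Cytb in complex III and mt-Co1 in complex IV.
For mt-Co1, footprints were at 318 and 258 CPM after SNI and at 391 and 480 CPM in sham, and mRNA was at 5045 and 4685 CPM after SNI and at 5362 and 5190 CPM in sham. Its log2 TE was -3.99 and -4.18 after SNI and -3.78 and -3.43 in sham, and the groups did not overlap. The TE fell by 0.49 on the log2 scale (standard error 0.05, adjusted p = 3.7e-10, edgeR). For mt-Nd1, the log2 TE was -4.73 and -5.14 after SNI and -4.59 and -4.37 in sham, a change of -0.45 (standard error 0.06, adjusted p = 1.4e-07). The values of mt-Nd5 were -3.44 and -3.77 after SNI and -3.38 and -2.97 in sham, a change of -0.43 (standard error 0.06, adjusted p = 8.9e-06). The standard errors from the lysates of each gene alone were 0.20 for mt-Co1, 0.23 for mt-Nd1 and 0.26 for mt-Nd5, above those of edgeR. With 1 lysate left out, the change ran from -0.64 (without sham replicate 1) to -0.30 (without sham replicate 2) for mt-Co1, from -0.67 (without SNI replicate 1) to -0.26 (without SNI replicate 2) for mt-Nd1, and from -0.61 (without SNI replicate 1 or sham replicate 1) to -0.20 (without sham replicate 2) for mt-Nd5, each still called. In each of these genes the groups did not overlap, SNI replicate 2 was the lowest lysate and sham replicate 2 the highest.
The groups overlapped in mt-Nd2, which changed by -0.33 (adjusted p = 0.0036), and in mt-Cytb, which changed by -0.25 (adjusted p = 0.0073). For mt-Nd2, the log2 TE was -4.21 and -4.54 after SNI, against -4.26 and -3.87 in sham. The uncalled mt-Nd6 and mt-Nd4 changed by -0.26 and -0.19 (adjusted p = 0.20 and 0.33). The 8th gene, mt-Nd3, lay at 0.72 (adjusted p = 0.38) with only 81 and 35 footprint reads after SNI and 30 and 66 in sham.
The mitochondrial genes also moved together between lysates of the same group. In all 8 genes the log2 TE of SNI replicate 1 exceeded that of SNI replicate 2, by 0.16 for mt-Nd6 to 1.19 for mt-Nd3. In all 8 that of sham replicate 2 exceeded that of sham replicate 1, and the gap, taken as replicate 1 minus 2, ran from -0.16 for mt-Nd4 to -0.91 for mt-Nd3. The difference between group means exceeded both of these gaps in 3 of the 8, mt-Co1, mt-Nd1 and mt-Nd5. The median TE change over the 8 genes was -0.29, against -0.00 over all genes. It ran from -0.47 without SNI replicate 1 to -0.10 without sham replicate 2. The calls of mt-Nd2 and mt-Cytb were lost without SNI replicate 2 (adjusted p = 0.53 and 0.96) and without sham replicate 2 (adjusted p = 0.71 and 0.49). In DESeq2, all 5 calls were lost (adjusted p = 1 for each).

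Zfp654 had 165 and 156 footprint reads after SNI and 181 and 250 in sham. As a share of the library its footprints were at 21.6 and 22.6 CPM after SNI and at 25.1 and 23.4 CPM in sham. Its mRNA was at 55.8 and 63.4 CPM after SNI, against 53.8 and 36.6 CPM in sham, so that 1 sham library, of replicate 2, lay well below the other 3. The TE changed by -0.56 (standard error 0.12, adjusted p = 0.012, edgeR), the mRNA by 0.37 (adjusted p = 1.4e-04) and the footprints by -0.13 (adjusted p = 0.67). Without sham replicate 2 the TE change was -0.33 (adjusted p = 0.55), and without SNI replicate 2 it was -0.50 (adjusted p = 0.14), so the call was lost in both cases.

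Beyond these genes, TE after SNI was close to TE in sham across the whole set. The mean log2 TE of the 2 groups had a Pearson r of 0.986 and a Spearman rho of 0.983 over 11619 genes, which are not independent replicates and share the lysates. The TE change had a median of -0.00 and a standard deviation of 0.15 on the log2 scale. Its middle 90% lay between -0.23 and 0.23. A TE change beyond 1.5-fold was estimated for 20 genes up and 20 down, and 29 of these 40 averaged fewer than 64 footprint reads per library. Only Zfand1 among the 40 was called.
The spread of the estimates followed the number of footprint reads. Among the 1352 genes with fewer than 64 footprint reads per library on average, the difference between SNI and sham in mean log2 TE had a standard deviation of 0.247, and the spread computed from the gaps between lysates of 1 group was 0.251. Among the 1755 genes next to the deepest, from 512 reads per library on average, these were 0.0795 and 0.0707, and among the 1585 genes with 1024 or more they were 0.0591 and 0.0483. Over these genes, the spread between SNI and sham pools was thus about that between pools of 1 group at low depth, and larger at high depth. The genes share the same lysates and are not replicates, so these spreads do not test an effect of SNI. The median standard error of a TE change was 0.25 in the shallowest group of genes and 0.05 in the deepest, and these errors set what size of change could be detected.
Both SNI lysates lay above both sham lysates in 16.9% of genes and below them in 18.8%. With 2 lysates against 2, an exact two-sided permutation test of a single gene cannot go below p = 0.333.

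The genes next in line, which were not called, were led by Lrp1, a large endocytic receptor of neurons and glia. Its footprints had 10503 and 9464 reads after SNI and 10801 and 15943 in sham, and its log2 TE was 1.72 and 1.71 after SNI and 1.855 and 1.84 in sham. The change of -0.13 missed the threshold (standard error 0.03, adjusted p = 0.064, edgeR). Its footprints alone fell by 0.12 (adjusted p = 2.5e-05) with an mRNA change of 0.00. The genes of this paragraph were named only if their groups did not overlap in log2 TE, so the lack of overlap was fixed by the selection. The sodium-activated potassium channel gene Kcnt1 lay at -0.42 and -0.42 after SNI and -0.23 and -0.20 in sham (change -0.20, adjusted p = 0.076, edgeR). Fn1, which encodes fibronectin, lay at 2.37 and 2.28 after SNI and 2.61 and 2.48 in sham (change -0.22, adjusted p = 0.077, edgeR). Tmed3, a cargo protein of the early secretory pathway, had a change of -0.39, and Ppfia3, the presynaptic scaffold liprin-alpha-3, one of -0.24 (adjusted p = 0.076 and 0.098). Upward, C77080 had 95 and 79 footprint reads after SNI and 54 and 88 in sham, and its log2 TE was -0.18 and -0.28 after SNI and -0.91 and -0.96 in sham (change 0.72, adjusted p = 0.074). Smg1, a kinase of nonsense-mediated decay, had a change of 0.30 (adjusted p = 0.085) and Map1lc3b, the autophagosome protein LC3B, one of 0.40 (adjusted p = 0.11). Mettl23, at 1.21 (adjusted p = 0.083), had only 57 and 26 footprint reads after SNI and 18 and 28 in sham.

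The translation machinery showed no called TE change. None of 38 genes of initiation factors and their regulators, 29 of the mTORC1 pathway, 26 of the ERK and MNK cascade or 23 of upstream open reading frames and the stress response was called. The median TE changes of these lists were 0.01, -0.02, -0.00 and -0.00 on the log2 scale, against -0.00 over all genes. Mtor itself had a change of -0.02 (standard error 0.05) and Eif4e one of 0.05 (standard error 0.13). Rptor, the mTORC1 scaffold raptor, lay at 0.38 and 0.39 log2 TE after SNI and at 0.53 and 0.57 in sham, a change of -0.17 (adjusted p = 0.41). Tsc2, the tuberin subunit of the complex that holds mTORC1 back, lay at 0.66 and 0.66 after SNI and at 0.84 and 0.81 in sham (change -0.16, adjusted p = 0.40). Eif2s3x, a subunit of eIF2, had the highest value among initiation genes, at 0.43 (standard error 0.18, adjusted p = 0.64). Atf4, whose mRNA is translated more when eIF2 is phosphorylated, had a change of -0.01 (standard error 0.07).
Ribosomal protein mRNAs begin with a 5′ terminal oligopyrimidine (TOP) element that makes their translation depend on mTORC1. Of 82 such genes, 44 had enough reads and 0 were called (4 at an unadjusted p under 0.05). Their median TE change was 0.03, with 26 above 0 and 18 below, and it was -0.03 without sham replicate 2 and 0.09 without sham replicate 1. The 17 elongation factor and other TOP genes had a median of -0.03. To show the element, the 4 TOP-list genes with most footprint reads among those whose RefSeq start site begins with C and at least 4 further C or T are given from 10 bases before the start site, with the pyrimidine run in capitals, on the plus strand of GRCm38.p6.
Rack1: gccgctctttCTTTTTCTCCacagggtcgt
Eif3f: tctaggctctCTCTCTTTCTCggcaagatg
Rplp2: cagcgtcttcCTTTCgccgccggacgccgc
Rpl14: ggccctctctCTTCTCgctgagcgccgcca
These stretches are chr11:48800350-48800379, chr7:108934405-108934434, chr7:141447641-141447670 and chr9:120571507-120571536. Such a start was found on the transcript strand at 2.49% of 27025 RefSeq start sites, at 7 of the 32 ribosomal protein genes with an entry and at 2.30% of the 9086 genes studied here with an entry. Rack1, a protein of the small ribosomal subunit, had a log2 TE of -0.15 and -0.20 after SNI and of -0.08 and -0.13 in sham (change -0.07, standard error 0.05). Rplp2, of the ribosomal stalk, lay at -1.26 and -1.12 after SNI and at -0.96 and -1.73 in sham, and the sham lysates enclosed the SNI lysates. Rpl14 lay at -0.89 and -1.07 after SNI and at -1.31 and -1.19 in sham (change 0.26, adjusted p = 0.62). The 209 genes studied here with such a start had a median TE change of -0.00, and so had those without it. Among ribosomal protein genes the median was 0.20 for the 7 with such a start and 0.07 for those without it. Among the elongation factor and other TOP genes it was -0.05 for the 2 with it and -0.03 for those without. These medians rest on few genes.
Nuclear-encoded subunits of the respiratory chain did not share the values of the mitochondrial genes. Of 40 such genes, 0 were called and the median TE change was 0.01. Sdhd, of complex II, lay at 0.14 (adjusted p = 0.54), and Atp5b, a subunit of ATP synthase with 17129 and 15346 footprint reads after SNI and 15953 and 23900 in sham, lay at -0.02 (standard error 0.03).

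**Figure D3:**
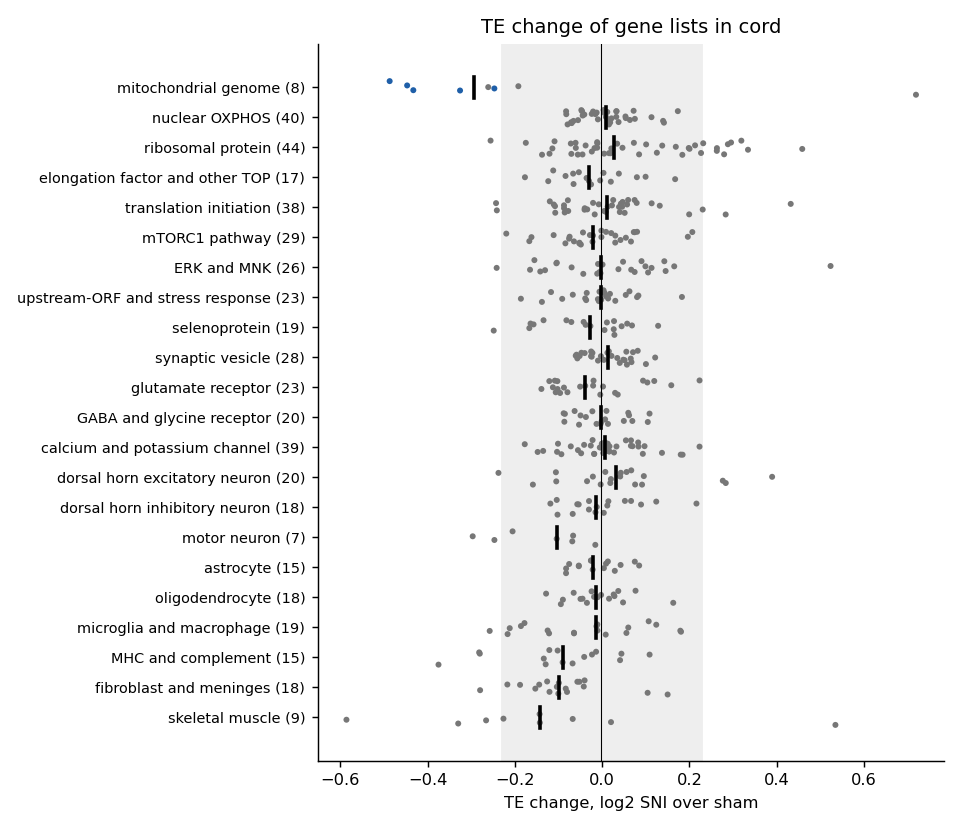
TE change (log2 SNI over sham) of the genes of 22 lists in the cord, with the number of genes in brackets. Points are genes (blue for called lower), black bars list medians, and the grey band holds the middle 90% of all genes. The median of the mitochondrial genome, -0.29, lies left of the other medians, with mt-Nd3 far to the right at 0.72.

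No TE call was made among genes of the pain circuit. This held for 20 excitatory and 18 inhibitory dorsal horn neuron genes, 23 glutamate receptors, 20 GABA and glycine receptor genes, 39 calcium and potassium channels and 28 genes of synaptic vesicles, whose list medians lay between -0.04 and 0.03. Grin1, the obligatory subunit of NMDA receptors, lay at 1.40 and 1.36 log2 TE after SNI and at 1.51 and 1.46 in sham, a change of -0.10 (standard error 0.03, adjusted p = 0.34). Gria2, the AMPA receptor subunit that limits calcium entry, had a change of 0.09 (adjusted p = 0.67). Slc12a5, the chloride transporter KCC2 on which inhibition by GABA depends, changed by -0.05 (standard error 0.03, adjusted p = 0.77), while its footprints fell by 0.10 (adjusted p = 4.8e-04) with an mRNA change of -0.05 (adjusted p = 0.27). Gad2, which makes GABA, lay at 0.59 and 0.62 after SNI and at 0.51 and 0.46 in sham (change 0.12, adjusted p = 0.56). Slc17a6, the vesicular glutamate transporter of dorsal horn excitatory neurons, had a change of 0.02 (standard error 0.04). Bdnf, the growth factor that microglial signalling and synaptic activity engage in pain, had 137 and 118 footprint reads after SNI and 158 and 177 in sham, and a TE change of -0.27 with a standard error of 0.15. Camk2a, a kinase mRNA known to be carried into dendrites, had a change of -0.08 (standard error 0.05).

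Glial and matrix genes were also uncalled in TE. The medians were -0.02 over 15 astrocyte genes, -0.01 over 18 oligodendrocyte genes and -0.01 over 19 microglia and macrophage genes. The list of fibroblast and meningeal genes, which holds collagens and other matrix proteins, had a median of -0.10 with 16 of 18 genes below 0, against 5918 of 11619 over all genes. In 11 of the 18, both SNI lysates lay below both sham lysates, against the 18.8% of all genes given above, and the median lay between -0.11 and -0.07 under every alternative run. The 18 genes share the same lysates, as do the alternative runs, so neither the genes nor the runs are independent replicates. The summed footprints of this list were at 6973 and 7014 CPM after SNI and at 7410 and 7439 CPM in sham, while its summed mRNA was at 3806 and 3895 CPM after SNI and at 3864 and 3947 CPM in sham and overlapped. Ptgds, the prostaglandin D synthase of meninges and oligodendrocytes, lay at 0.85 and 0.85 log2 TE after SNI and at 0.93 and 0.93 in sham (change -0.08, adjusted p = 0.37). The MHC and complement list had a median of -0.09 over 15 genes, which was -0.04 without sham replicate 1. In this list C3, the central complement component, had 293 and 268 footprint reads after SNI and 367 and 491 in sham, and a change of -0.37 (standard error 0.11, adjusted p = 0.22). The motor neuron list had 7 genes, all below 0, with a median of -0.10. Leaving out SNI replicate 1 gave -0.06, leaving out SNI replicate 2 gave -0.16 and leaving out sham replicate 1 gave -0.17. In each case of a lysate left out, other than SNI replicate 2, 1 gene lay above 0. Its summed footprints were at 550 and 563 CPM after SNI and at 648 and 672 CPM in sham. Skeletal muscle genes had a median of -0.14 over 9 genes, which was -0.38 without SNI replicate 1 and -0.09 when SNI replicate 2 or sham replicate 1 was removed. Among them were Myh4, a fast muscle myosin, at 0.53 and Atp2a1, the muscle calcium pump, at -0.59 (adjusted p = 0.65 and 0.67) on few reads. Myh4 had 47 and 36 mRNA reads after SNI and 115 and 97 in sham, and Atp2a1 had 56 and 34 footprint reads after SNI and 76 and 127 in sham.

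More genes were called in mRNA than in TE, and the footprints of those called in mRNA mostly moved the same way. The mRNA libraries were deeper, and a TE change carries the noise of both assays, so the counts of calls do not rank the sizes of the changes. The study, by its own thresholds, listed more cord genes in TE than in mRNA. In mRNA, 289 of 13456 protein-coding genes were called higher after SNI (2.15%) and 274 lower (2.04%). In footprints, 81 of 11662 were higher (0.695%) and 113 lower (0.969%). DESeq2 called 38 and 16 genes in mRNA and 22 and 15 in footprints. Of the 271 genes studied here whose mRNA was called higher, 238 had a footprint change above 0, with a median of 0.10 beside a median mRNA change of 0.17, 49 were also called higher in footprints and 0 were called lower. Of the 269 called lower in mRNA, 217 had a footprint change below 0, with a median of -0.07 beside -0.14 for mRNA, and 38 were also called lower in footprints. Since these genes were selected on their mRNA, and the TE divides by the same mRNA reads, their TE medians of -0.07 and 0.06 are a description.

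**Figure D4:**
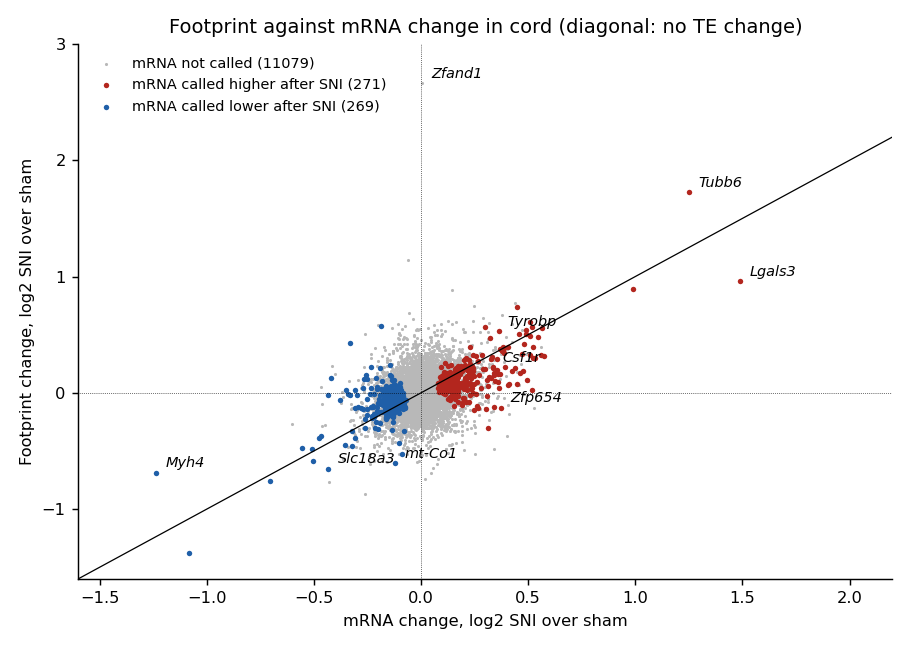
Footprint change (vertical) against mRNA change (horizontal), both log2 SNI over sham in the cord, for 11619 genes. Points on the diagonal have no TE change, red and blue points were called in mRNA, Zfand1 lies above the diagonal at an mRNA change of 0.01, and Sprr1a, at 7.28 and 6.24, lies outside the axes.

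Sprr1a, a small proline-rich protein made by axotomized neurons and named by the study for the cord, had 338 and 356 footprint reads after SNI and 8 and 3 in sham, and 676 and 652 mRNA reads after SNI against 5 and 4 in sham. Both changes were large, 6.24 for footprints and 7.28 for mRNA, and were called (adjusted p = 2.1e-15 and 7.2e-44, edgeR). The TE could not be pinned down from the few sham reads. Its log2 TE was 0.62 and 0.81 after SNI and 2.54 and 0.71 in sham, so the sham lysates differed by more than the groups, and the change of -1.15 had a standard error of 0.63 (adjusted p = 0.76). The other cord genes named by the study, Scn4a, Htr3b, Rtn4rl2 and Tmem54, had at most 13 reads in any cord library and are not among the genes tested here.
Csf1r, the receptor that keeps microglia alive, had 1555 and 1412 footprint reads after SNI and 1298 and 1837 in sham, and changed by 0.22 in footprints and 0.34 in mRNA (adjusted p = 0.0013 and 9.5e-10), with a TE change of -0.12 (adjusted p = 0.60). Of the 20 genes on the microglia and macrophage list, 14 were called higher in mRNA, against 2.15% of all genes tested, and 8 of the 19 with enough reads in footprints, against 0.695%. Among genes known to be induced in injured sensory neurons, Lgals3, the lectin galectin-3 that activated macrophages also make, rose by 0.96 in footprints and 1.49 in mRNA, and the tubulin Tubb6 by 1.72 and 1.25, with TE changes of -0.47 and 0.48 (standard errors 0.25 and 0.28). Gfap, the astrocyte filament protein, rose by 0.14 in footprints and 0.21 in mRNA (adjusted p = 6.8e-05 and 1.3e-10), and B2m, the light chain of MHC class I, by 0.23 and 0.24. Downward, Slc18a3, the vesicular acetylcholine transporter of motor neurons, had 218 and 207 footprint reads after SNI and 316 and 507 in sham, and fell by 0.65 in footprints and 0.43 in mRNA (TE change -0.21, adjusted p = 0.72). Chodl, a marker of fast motor neurons, fell by 1.38 in footprints and 1.08 in mRNA, with a TE change of -0.30 (standard error 0.16). Of the motor neuron list, 4 of 8 genes tested were called lower in mRNA, against 2.04% of all genes tested. In footprints 5 of 7 were, against 0.969%. The mRNA of Prph and Mmp9, also on that list, changed by 0.10 and -0.01 (adjusted p = 0.42 and 0.99, edgeR). Hspa5, the main chaperone of the endoplasmic reticulum, fell by 0.17 in footprints and 0.19 in mRNA, with a TE change of 0.02 (standard error 0.04).

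The size of the TE change varied little with features of the mRNA. Coding transcripts in GENCODE M21 were found for 11607 of the genes, and the 11599 nuclear ones among them were divided into 5 equal bins by each feature. By 3′ UTR length the median TE change was -0.01 in the bin with the shortest (median 173 bases) and 0.02 in the bin with the longest (median 3596 bases), with 44.4% and 59.0% of genes above 0. In the same 2 bins the median mRNA change was 0.03 and -0.04 and the median footprint change 0.01 and -0.01. Footprints thus moved opposite to TE, and mRNA moved further than footprints. By coding length it was 0.01 in the shortest bin (median 573 bases) and -0.02 in the longest (median 3660 bases). By GC content of the coding region the medians lay between -0.01 and 0.01, and by 5′ leader length between -0.01 and 0.00. The sham log2 TE of the other tissue, the dorsal root ganglion (DRG), gives a ranking from other lysates. The median cord TE change was 0.03 in the bin of genes with the lowest sham DRG TE and -0.03 in the bin with the highest, with 57.8% and 37.8% of genes above 0. The medians fell in order over the 5 bins, and each of these shifts was small beside the standard deviation of 0.15 over all genes. These values are descriptions over genes that share the lysates.

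Fewer genes were called in TE in the cord than in the DRG, which holds the cell bodies of the sensory neurons and was profiled in the same study. In the DRG, 504 of 12393 protein-coding genes were called higher in TE (4.07%) and 388 lower (3.13%). These DRG calls, and the overlaps with them given below, come from the main edgeR fit only. No alternative was run for the DRG by itself, so how far they depend on the settings is not known. Over the 11147 genes tested in both tissues, the TE change had a standard deviation of 0.144 in the cord and 0.160 in the DRG, with median standard errors of 0.107 in the cord and 0.0906 in the DRG, and whether the tissues differed in the size of the response as a whole was not tested. A test of the difference between the tissues' TE changes, with 11147 protein-coding genes in both, called 34 genes with a higher change in the cord (0.305%) and 77 with a lower one (0.691%). DESeq2 called 2 and 6. Among the 34, 33 were called in the DRG by itself and 1, Zfand1, in the cord by itself, and among the 77, 66 were called in the DRG and 5 in the cord. The median TE change of the 77 was -0.08 in the cord and 0.24 in the DRG.
Zfand1 changed in opposite directions. In the DRG it had 757 and 1206 footprint reads after SNI and 1396 and 3076 in sham, with 168 and 133 mRNA reads after SNI and 119 and 103 in sham. The log2 TE in the DRG was 3.38 and 3.22 after SNI and 4.98 and 4.94 in sham, and the groups did not overlap. The TE change was 2.67 in the cord and -1.65 in the DRG, and the difference of 4.31 had a standard error of 0.21 (adjusted p = 1.2e-30, edgeR). Zfp654 was lower in TE in both tissues. In the DRG its log2 TE was -1.55 and -1.705 after SNI and -0.84 and -1.01 in sham. Its DRG mRNA had 1709 and 1409 reads after SNI and 719 and 679 in sham. The DRG TE change was -0.68 (adjusted p = 3.0e-09, edgeR), and the difference between the tissues was not called (0.12, adjusted p = 0.86, edgeR).
Of the 8 mitochondrial genes, 7 differed between the tissues, all lower in the cord. The largest of these differences was -0.66 for mt-Nd1 (standard error 0.08, adjusted p = 8.6e-10), which changed by -0.45 in the cord and 0.21 in the DRG. mt-Nd4 changed by -0.19 in the cord and 0.43 in the DRG (difference -0.63, adjusted p = 2.4e-07), and mt-Co1 by -0.49 and -0.03 (difference -0.47, adjusted p = 3.1e-07). Ppp3ca, the catalytic subunit of calcineurin, changed by 0.02 in the cord and 0.44 in the DRG (difference -0.42, adjusted p = 1.0e-12). Snph, which anchors axonal mitochondria, and Mapk8ip1, a scaffold of JNK signalling, changed by 0.12 and 0.08 in the cord and by -0.24 and -0.22 in the DRG (adjusted p = 2.3e-04 and 2.4e-04 for the difference).

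**Figure D5:**
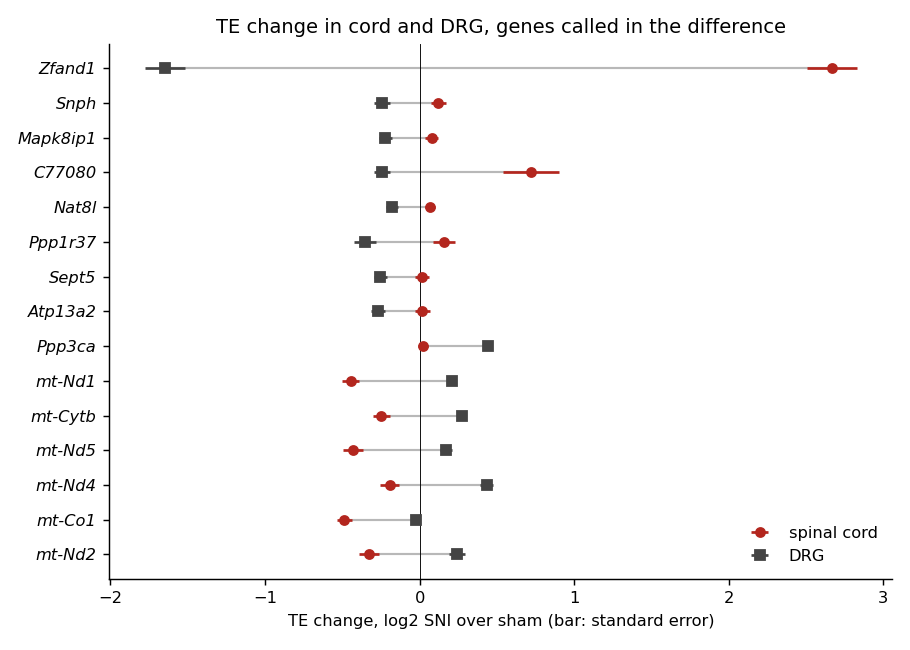
TE change (log2 SNI over sham, bars for the standard error) in spinal cord (red circles) and DRG (dark squares) for 15 protein-coding genes among those with the smallest p of the difference between the tissues, 8 with a higher and 7 with a lower change in the cord. Zfand1 has the widest distance, from 2.67 in the cord to -1.65 in the DRG.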

How the data were processed

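Ribosome footprints and poly(A)+ mRNA were measured in 16 libraries of spinal cord and DRG, of which the 8 of the cord carry the report. Groups were taken from the sample titles. The deposited read counts were made by the authors with HTSeq (version not given in the sources used here) after Bowtie 1.1.2 had filtered rRNA and tRNA and STAR 2.5.2b had aligned the rest to GRCm38.p5. Strand was not kept, so reads of overlapping or antisense genes cannot be told apart, and genes with near-identical copies, such as ribosomal protein genes with pseudogenes and histones, are uncertain. The deposited RPKM was made by the authors from these counts. The deposited TE is a ratio that the authors made from both RPKM values of a lysate, and it was used as an alternative only.

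TE change was tested on the counts with edgeR 4.0.16 in R 4.3.3, as a surgery-by-assay interaction with lysate terms, over 11865 genes of any type that averaged 32 reads per library in each assay. Library sizes were column sums, with TMM factors within each assay. Footprints and mRNA were tested alone in the same way, and the tissues by a 3-way interaction. Genes were called at a Benjamini-Hochberg adjusted p under 0.05, with all tested genes in the adjustment. log2 TE per lysate used 0.5 added reads and library sizes. The estimated common biological coefficient of variation of the cord TE fit was 0.0159, with 2 residual degrees of freedom. The alternatives were library sizes alone, DESeq2 1.42.0, no filter, the summed minimum in each library, a fit to protein-coding genes alone, no lysate terms, limma 3.58.1 on log2 TE and on the deposited ratio, a fixed coefficient of 0.1, a test against 1.5-fold, both tissues in 1 fit, a replicate block and leaving out each lysate. List medians under these alternatives were added after the data were seen. The scripts were tested on simulated data.

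The genes and the 35 gene lists were chosen with earlier results of these data known. Named genes were the called ones, the 8 uncalled with the smallest p each way and no overlap of the groups, the 5 cord genes of the study, up to 2 per list each way by p with the one of most footprint reads, and up to 8 called each way for the tissue difference. Eif4e, Atf4, Chodl and the TOP genes with printed starts were named after values had been seen. Start codons and coordinates are from GENCODE M21 (GRCm38), and start sites from RefSeq (GRCm38.p6), matched by symbol. Zfand1 and Zfp654 had no RefSeq entry. The text names those that carry a result, and 1 called gene of the tissue comparison is not reported here.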

Additional observations from a re-analysis of the deposited data

Results flagged for a closer look

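The TE change of the following genes differed between spinal cord and DRG by the edgeR interaction test (cord minus DRG, log2). No explanation was tested. Above 0 were Zfand1 (4.31), C77080 (0.96), Slc12a5 (0.81), Ppp1r37 (0.51), Snph (0.36), Mapk8ip1 (0.30), Atp13a2 (0.29), Sept5 (0.27) and Nat8l (0.24). Below 0 were the mitochondrial genes mt-Nd1 (-0.66), mt-Nd4 (-0.63), mt-Nd5 (-0.61), mt-Nd2 (-0.57), mt-Cytb (-0.53) and mt-Co1 (-0.47).
Below 0 as well were Ifit1 (-1.32), an interferon-induced gene, Atp2a1 (-1.21), Cx3cr1 (-0.84), the fractalkine receptor of microglia, Bdnf (-0.63), Ppp3ca (-0.42), Slc17a6 (-0.23) and Snap25 (-0.17), the last of which is part of the synaptic fusion complex. Apart from Zfand1 and the mitochondrial genes other than mt-Nd4, none of these was called in the cord alone, and their cord TE changes ran from -0.59 for Atp2a1 to 0.72 for C77080. Ifit1 had 39 and 38 footprint reads after SNI and 44 and 78 in sham cord, and its cord TE change was -0.55 with a standard error of 0.25.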

How the results depend on the processing

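Zfand1 kept its direction under every alternative that tested it and its call under all of these but limma on log2 TE and on the deposited TE, and it was not tested with the summed minimum in each library, while the calls of lower TE depended on the settings. Genes called higher and lower in TE (1 and 6 as reported) numbered 1 and 6 with library sizes alone or protein-coding genes only, 3 and 7 with no filter, 0 and 8 with the summed minimum in each library, 2 and 6 with both tissues in 1 fit, 1 and 3 with no lysate terms, 1 and 0 with DESeq2, with a coefficient of variation of 0.1 or against 1.5-fold, and 0 and 0 with limma on log2 TE or on the deposited TE (346 and 350 at an unadjusted p under 0.05 in the last). Leaving out 1 lysate gave 2 to 10 higher and 6 to 11 lower, and 3 of the 6 reported calls (mt-Nd2, mt-Cytb and Zfp654) were lost on removal of SNI replicate 2, and the same 3 on removal of sham replicate 2. In footprints (81 and 113 reported) DESeq2 gave 22 and 15, and leaving out 1 library 43 to 87 and 58 to 102. In mRNA (289 and 274) DESeq2 gave 38 and 16, and leaving out 1 library 74 to 484 and 48 to 521. For cord minus DRG (34 and 77) DESeq2 gave 2 and 6, and leaving out 1 cord lysate 15 to 34 and 43 to 74. Over all genes of the TE fit, same-numbered lysates did not deviate together (correlation of log2 TE deviations -0.02). This correlation cannot show a batch shared by only some genes, so it does not settle whether the numbers pair the lysates. With the replicate number as a replicate block, the counts higher and lower were 7 and 17 in TE, 130 and 188 in footprints, 475 and 488 in mRNA and 43 and 86 for cord minus DRG. Among the 186 genes of the naming rule, no TE change reversed as a called value under the 16 alternatives. Outside these 186, Parp6 did reverse, with a lower TE after SNI without SNI replicate 1 and a higher one without SNI replicate 2. The cause of these differences was not tested. Genes with under 64 footprint reads per library on average had a median standard error of 0.25 on the log2 scale, which limits what could be detected there.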

Other observations

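In the same cord TE fit, 19 genes of other types were called higher after SNI and 4 lower. Over all 11865 genes tested, 20 were called higher and 10 lower, of which 1 and 6 were among the 11619 protein-coding genes. Genes of other types thus made up a small part of those tested and most of those called. Those higher were 10 snoRNAs, 3 snRNAs, 2 miRNAs, 2 genes of miscellaneous RNA, 1 lincRNA and 1 processed transcript, and those lower were 1 snRNA, 1 mitochondrial tRNA, 1 lincRNA and 1 gene to be experimentally checked. Such RNAs are not translated, and their reads in footprint libraries do not count ribosomes.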
